A study of Mus musculus with 6 samples.

Results

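The genes of noradrenaline synthesis, storage and reuptake form a set of 8 members out of 54838 genes counted in the atria of old mice. They are the synthesis enzymes Th, Ddc, Dbh and Pnmt, the vesicle transporter Slc18a2, the reuptake transporter Slc6a2, the breakdown enzyme Maoa and the co-released peptide Npy. The set was chosen by the measured level of Dbh, which was higher in every library named KO than in every library named WT in earlier results of these data, together with the known pathway around that enzyme. The fold changes by library name are therefore a description, with no test. All 8 members had counts, and 7 of 8 passed the filter on low counts; Npy did not.

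Atria from 6 mice gave 6 RNA libraries, in 2 groups of 3 that should hold knockout (KO) and wild-type (WT) animals for protein kinase C epsilon, the product of Prkce. The mice were old, at 20.9 ± 0.43 months on average (kind of error not stated), and of both sexes. By genotype field, the KO animals are of the mouse line JAX stock #004189 and the WT animals are C57BL/6J. The field and the library name, which heads each column of counts, give opposite genotypes for 4 of the 6 libraries. The sample titles give the genotype of the field in all 6 libraries, so KO replicate 2, for example, is titled a WT control. The libraries named KO replicate 1 (field KO), KO replicate 2 (field WT) and KO replicate 3 (field WT) are set here against WT replicate 1 (field WT), WT replicate 2 (field KO) and WT replicate 3 (field KO). Nothing in the labels used here says in which cells the kinase is lost, or whether the replicates share litters, and the p-values measure only the spread between these animals.

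Total counts ran from 11574206 to 24138824 per library. Prkce stood at 9.19, 5.14 and 28.6 CPM (counts scaled to the library total and by TMM factors) in KO replicates 1, 2 and 3, against 36.2, 11.7 and 30.2 CPM in WT replicates 1, 2 and 3. KO replicate 3 was thus nearer to the 2 higher libraries named WT than to the other libraries named KO, and WT replicate 2 was nearer to the low libraries named KO, so neither the name nor the field sorts all 6 libraries by Prkce. The summed level of 4 Y-linked genes was 78.8 to 126 CPM in the libraries named KO, against 1.08, 1.09 and 146 CPM in those named WT. The tissue carried its labelled markers: all 12 atrial cardiomyocyte genes were detected in every library, with a summed level of 40710 to 52000 CPM.

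Noradrenaline is the transmitter of the sympathetic nerves that raise the rate and force of the heartbeat. Tyrosine hydroxylase (Th) makes DOPA from tyrosine with tetrahydrobiopterin as cofactor, DOPA decarboxylase (Ddc) makes dopamine, and dopamine beta-hydroxylase (Dbh) turns dopamine into noradrenaline inside the vesicle. The cell bodies of sympathetic neurons lie mostly in ganglia outside the heart, while the atria hold small intrinsic ganglia in which most neurons are cholinergic. In bulk tissue, fewer cells of a type and less RNA per cell cannot be told apart.

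The promoters of the first and the third enzyme are printed here because one is the rate-limiting enzyme and the other set the choice of genes, and their RNA levels differed widely. Promoter windows were found for 6 of the 8 members; Pnmt and Slc6a2 had none. Each sequence is the 250 bases before the RefSeq start (GRCm38.p6), read 5′ to 3′ along the gene. The first lies at chr2:27165257-27165506 on the plus strand and the second at chr7:142899996-142900245 on the minus strand. Both windows lie inside the GENCODE gene spans used here for positions and lengths, which begin upstream of the RefSeq start. Capitals mark TGACG, the core of the cAMP response element, and TAAT, a core bound by homeodomain factors, on either strand.
Dbh: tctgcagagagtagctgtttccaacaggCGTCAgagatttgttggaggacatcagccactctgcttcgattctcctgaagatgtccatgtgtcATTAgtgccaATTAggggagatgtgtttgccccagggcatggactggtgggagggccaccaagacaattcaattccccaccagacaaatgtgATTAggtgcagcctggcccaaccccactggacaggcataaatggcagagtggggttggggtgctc
Th: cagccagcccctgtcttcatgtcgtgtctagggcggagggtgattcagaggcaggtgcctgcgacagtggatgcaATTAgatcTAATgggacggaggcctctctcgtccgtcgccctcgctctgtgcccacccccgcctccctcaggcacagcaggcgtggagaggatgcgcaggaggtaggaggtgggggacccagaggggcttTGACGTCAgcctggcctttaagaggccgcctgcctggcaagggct
The Dbh window held TAAT cores at 157 to 154, 147 to 144 and 65 to 62 bases before the start and a TGACG core at 222 to 218 bases. The Th window held TAAT cores at 175 to 172 and 167 to 164 bases and the whole palindrome TGACGTCA at 45 to 38 bases, in which the TGACG core reads on both strands and overlaps itself. Of 32851 promoter windows of this length, 1.55% held TGACGTCA, 17.8% held TGACG and 54.9% held TAAT, so the TAAT core is common to most promoters. Phox2a, a homeodomain factor of noradrenergic neurons, is known to act on the Dbh promoter. Its own RNA was near the limit of detection, with 0.454, 1.30 and 0.636 CPM in KO replicates 1 to 3, against 0.120, 1.76 and 0.219 CPM in WT replicates 1 to 3.

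Dbh was the most abundant member in every library. Its level was 35.8, 35.3 and 38.2 CPM in KO replicates 1, 2 and 3, against 24.3, 19.9 and 23.2 CPM in WT replicates 1, 2 and 3 (632, 487 and 781 counts against 406, 237 and 531). The libraries named KO lay above all those named WT, which is what chose the set. The means were 36.4 ± 1.5 CPM in libraries named KO and 22.5 ± 2.3 CPM in libraries named WT (SD, n = 3 each), a log2 fold change of 0.69 (SE 0.15). Between the 2 libraries whose names begin with Old the log2 ratio was 0.56, KO over WT, and among the 4 whose names begin with a number it was 0.77 (SE 0.18). With Y-linked expression as a covariate it was 0.65 (SE 0.25); the part of sex in the level of Dbh was not tested. The Dbh gene (ENSMUSG00000000889, chromosome 2 at 27165233 to 27183200, GRCm38) shares no base with another gene, so its reads are not split.

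Beside their Prkce levels of 9.19, 5.14 and 28.6 CPM, KO replicates 1 to 3 had 35.8, 35.3 and 38.2 CPM of Dbh; beside 36.2, 11.7 and 30.2 CPM of Prkce, WT replicates 1 to 3 had 24.3, 19.9 and 23.2 CPM of Dbh. Since Dbh was chosen for its order by name, the part of Prkce in these levels was not tested. Without the 2 libraries whose Prkce level goes against their name, WT replicate 2 and KO replicate 3, the log2 fold change was 0.58 (SE 0.21).

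By genotype field the order of Dbh broke up. The libraries with the field KO stood at 35.8, 19.9 and 23.2 CPM (KO replicate 1, WT replicate 2 and WT replicate 3), against 24.3, 35.3 and 38.2 CPM with the field WT (WT replicate 1, KO replicate 2 and KO replicate 3). The ranges overlapped. The log2 fold change was -0.30 (SE 0.24), and it was opposite in sign to that by name because the field turns round the genotype of the 4 numbered libraries and leaves the Old pair as it is. Within the title's replicate pairs, the ratio by field was 0.56 in pair 1, -0.82 in pair 2 and -0.72 in pair 3 on the log2 scale, while by name it was 0.56, 0.82 and 0.72.

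**Figure D1:**
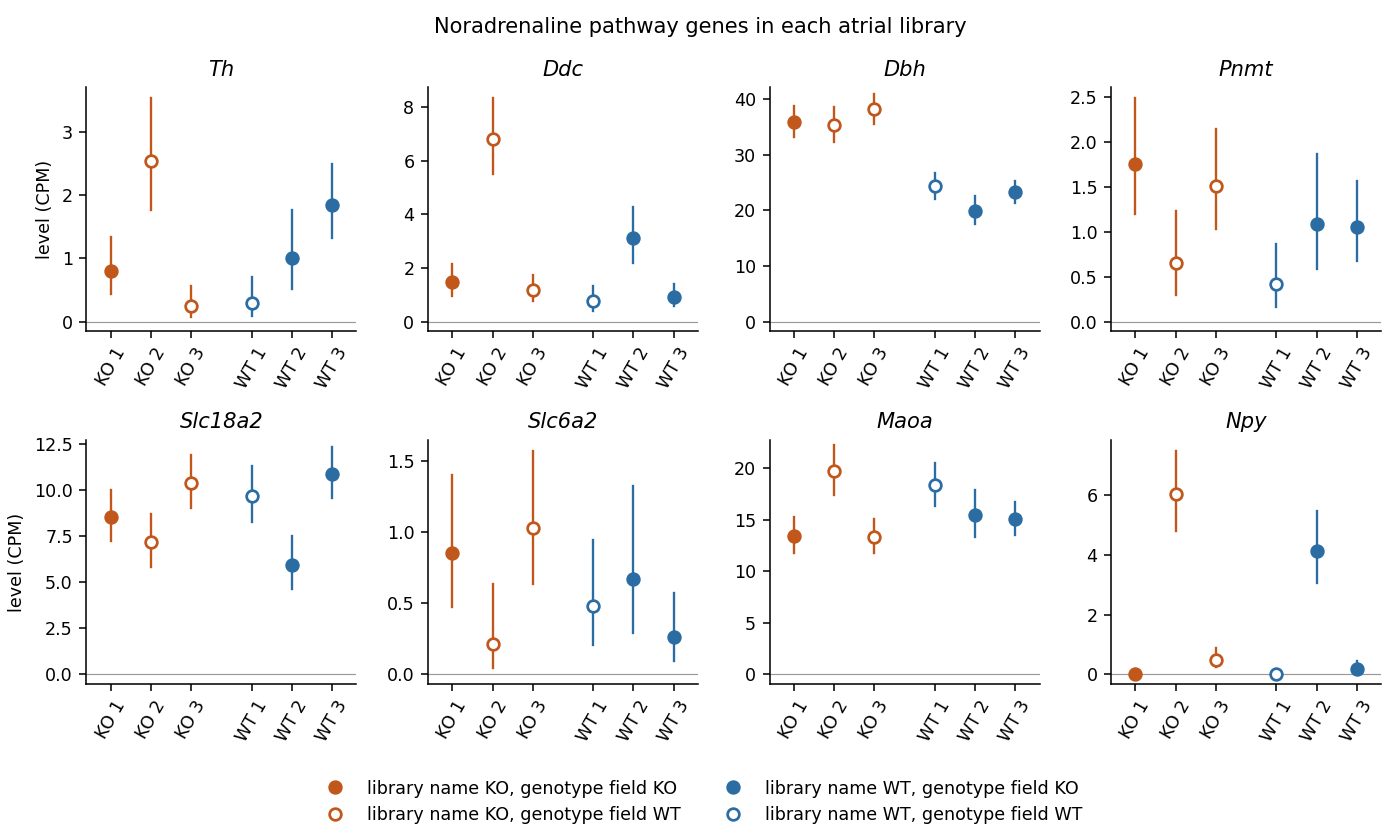
Level in CPM of each of the 8 members in the 6 libraries, with 95% Poisson intervals (counting error only; up to 3 counts where the count is 0) as bars; colour gives the library name and filled points the genotype field KO. Dbh sits at 35.3 to 38.2 CPM in the 3 libraries named KO and at 19.9 to 24.3 CPM in the 3 named WT, while Npy and Ddc peak in KO replicate 2 and WT replicate 2.

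The 2 enzymes ahead of Dbh were rare and did not share its pattern. Th, the rate-limiting enzyme, had 0.794, 2.53 and 0.244 CPM in KO replicates 1 to 3, against 0.299, 1.01 and 1.84 CPM in WT replicates 1 to 3, from 5 to 42 counts per library. KO replicate 2 and WT replicate 3 were high, KO replicate 3 and WT replicate 1 low, and the groups overlapped under both labels. Its log2 fold change was 0.11 (SE 0.82) by library name and 0.32 (SE 0.82) by genotype field. By name it turned to -1.05 (SE 0.86) without KO replicate 2. Ddc, which also serves serotonin synthesis, had 1.47, 6.81 and 1.17 CPM in KO replicates 1 to 3, against 0.779, 3.11 and 0.920 CPM in WT replicates 1 to 3. KO replicate 2 and WT replicate 2 stood above the other 4 libraries, one from each group under either label. The log2 fold change of Ddc was 1.00 (SE 0.77) by name and -0.68 (SE 0.82) by field, and without KO replicate 2 these were -0.23 (SE 0.67) and 0.86 (SE 0.62). By name it was 1.86 (SE 0.79) without WT replicate 2 and 2.26 (SE 0.69) without WT replicate 2 and KO replicate 3, the libraries at odds with Prkce. Of the Ddc gene body, 79.5% is free of other genes.

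Pnmt, which methylates noradrenaline to adrenaline, was likewise close to the detection limit. It had 1.76, 0.652 and 1.52 CPM in KO replicates 1 to 3, against 0.419, 1.09 and 1.05 CPM in WT replicates 1 to 3, from 7 to 31 counts. The groups overlapped under both labels, with log2 fold changes of 0.63 (SE 0.55) by name and 0.56 (SE 0.55) by field. In the numbered libraries alone the value by name was 0.06 (SE 0.61).

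The transporters of storage and reuptake differed widely in level. Slc18a2, the monoamine transporter VMAT2 that fills the vesicles, had 8.56, 7.17 and 10.4 CPM in KO replicates 1 to 3, against 9.70, 5.97 and 10.9 CPM in WT replicates 1 to 3. The lowest library of each named group was replicate 2, and the means, 8.72 ± 1.63 CPM in libraries named KO and 8.86 ± 2.57 CPM in those named WT (SD, n = 3 each), differed by less than the spread within either. Its log2 fold change was -0.03 (SE 0.27) by name and -0.09 (SE 0.26) by field. Slc6a2, the noradrenaline transporter of the nerve ending, had 0.851, 0.217 and 1.03 CPM in KO replicates 1 to 3, against 0.479, 0.673 and 0.263 CPM in WT replicates 1 to 3. With 3 to 21 counts per library it gave log2 fold changes of 0.65 (SE 0.67) by name and -0.03 (SE 0.67) by field, and the groups overlapped under both. Leaving out KO replicate 3 made the value 0.26 by name and 0.71 (SE 0.81) by field. By name it was also 0.32 without WT replicate 3, 1.04 without KO replicate 2 and 1.42 with Y-linked expression as a covariate.

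Maoa, the mitochondrial enzyme that breaks down noradrenaline and serotonin, varied little between libraries. It had 13.4, 19.7 and 13.3 CPM in KO replicates 1 to 3, against 18.3, 15.5 and 15.1 CPM in WT replicates 1 to 3, and the highest and lowest libraries were both named KO. The log2 fold change was -0.08 (SE 0.21) by name and -0.22 (SE 0.19) by field.

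Npy, the peptide released with noradrenaline by sympathetic nerves, was present in some atria and undetected in others. It had 0, 83 and 10 counts in KO replicates 1 to 3, against 0, 49 and 4 counts in WT replicates 1 to 3, which are 0, 6.01 and 0.489 CPM against 0, 4.12 and 0.175 CPM. A count of 0 allows up to 0.170 CPM (3 counts) in KO replicate 1 and 0.180 CPM in WT replicate 1. The 2 libraries that held most of it come from different groups under either label. It was not tested, since it missed the filter on low counts; with no filter its log2 fold change was 0.66 (SE 2.28) by name and -0.67 (SE 2.27) by field.

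Levels of different genes were compared per kilobase of merged exon. Dbh lay at 7.40 to 14.2 CPM per kilobase, with a median of 11.1. Maoa followed at 3.20 to 4.73 and Slc18a2 at 1.14 to 2.09, and the ranges of these 3 genes did not overlap. Pnmt (0.363 to 1.52), Th (0.103 to 1.07), Ddc (0.175 to 1.53) and Slc6a2 (0.0345 to 0.163) came lower. The ranges of Pnmt, Th and Ddc overlapped one another, and those of Pnmt and Ddc reached into that of Slc18a2. The range of Slc6a2 lay below that of Ddc and overlapped that of Th. Npy spanned this scale from 0 to 10.6 CPM per kilobase, and in its 2 highest libraries it came near Dbh, which exceeded it by 1.23 times in KO replicate 2 and 1.02 times in WT replicate 2. Within a library, Dbh exceeded Th per kilobase by 39.6, 12.2 and 137 times in KO replicates 1 to 3, against 71.3, 17.3 and 11.1 times in WT replicates 1 to 3. It exceeded Slc18a2 by 8.12, 9.55 and 7.12 times in KO replicates 1 to 3, against 4.86, 6.48 and 4.14 times in WT replicates 1 to 3. The counted feature type is not given in the sources used here. Per kilobase of gene body Dbh was still the highest by median, at 1.66 CPM, with Pnmt next at 0.619. Th was at 0.0235, but its gene span (142892752 to 142931128, minus strand) runs upstream past its RefSeq start, which lowers this value.

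**Figure D2:**
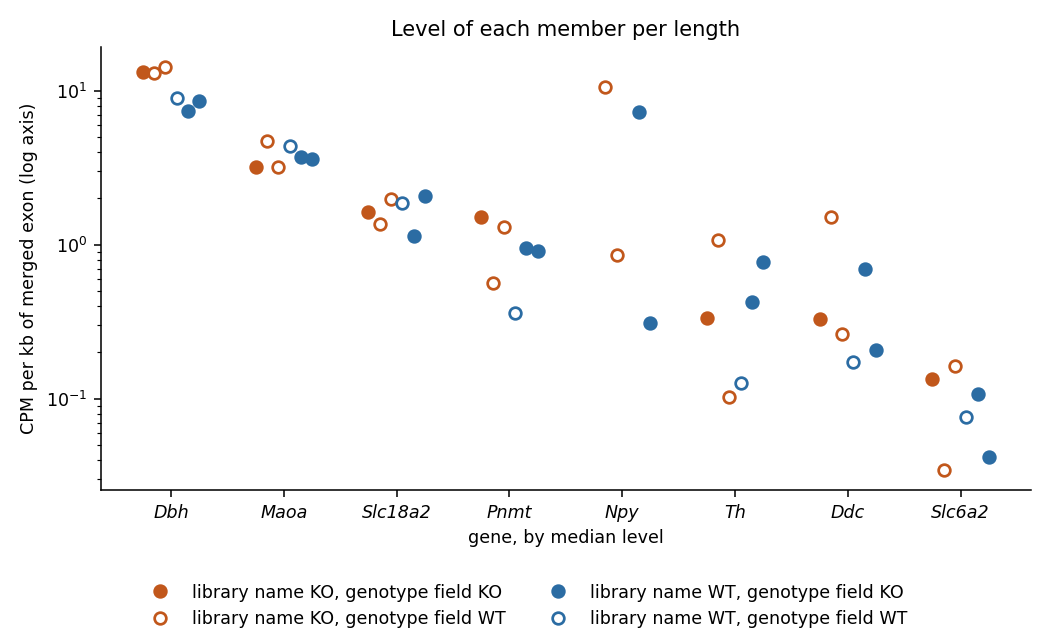
CPM per kilobase of merged exon of each member, one point per library on a log axis, ordered by median; the 2 libraries with Npy at 0 are not drawn. Dbh runs from 7.40 to 14.2, above Maoa at 3.20 to 4.73, while Th runs from 0.103 to 1.07.

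Since Dbh chose the set in the contrast by library name, the counts of members there are a description from which nothing is read. None of the 14708 genes tested (0%) passed the test in edgeR's quasi-likelihood fit or in DESeq2; 219 genes (1.49%) had an unadjusted p under 0.05 in edgeR and 223 in DESeq2. Of the 7 tested members, 5 had a log2 fold change above 0, against 45.5% of all genes, with a median of 0.63 against -0.02 over all genes. The 3 low members Ddc, Pnmt and Slc6a2 had fold changes of a size like that of Dbh, but each with an SE of 0.55 to 0.77 against 0.15 for Dbh, and overlapping libraries. Dbh was the member, 1 of 7, whose libraries named KO were all above those named WT, which held for 3.33% of all genes; the opposite held for 0 of 7 members and 2.62% of all genes.

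By genotype field, 0 of 7 members passed the test in edgeR or in DESeq2, against 2 of 14708 genes (0.0136%) in edgeR, and 0 of 7 had an unadjusted p under 0.05 in either tool, against 837 genes (5.69%) in edgeR. DESeq2 called 27 genes. It gave no adjusted p for 5 members. With the replicate number as a block edgeR called 51 genes and again no member. Of the 7 members 2 were above 0, Th and Pnmt, against 48.1% of all genes, and the median was -0.09 against -0.01. No member's libraries parted by field, which 7.48% of genes did with the field KO higher and 4.49% with it lower. Leaving Dbh aside, the adjusted p of the members lay between 0.914 for Maoa and 0.996 for Slc6a2. This reading uses the libraries in which Dbh was chosen, so it is not independent of that choice.

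**Figure D3:**
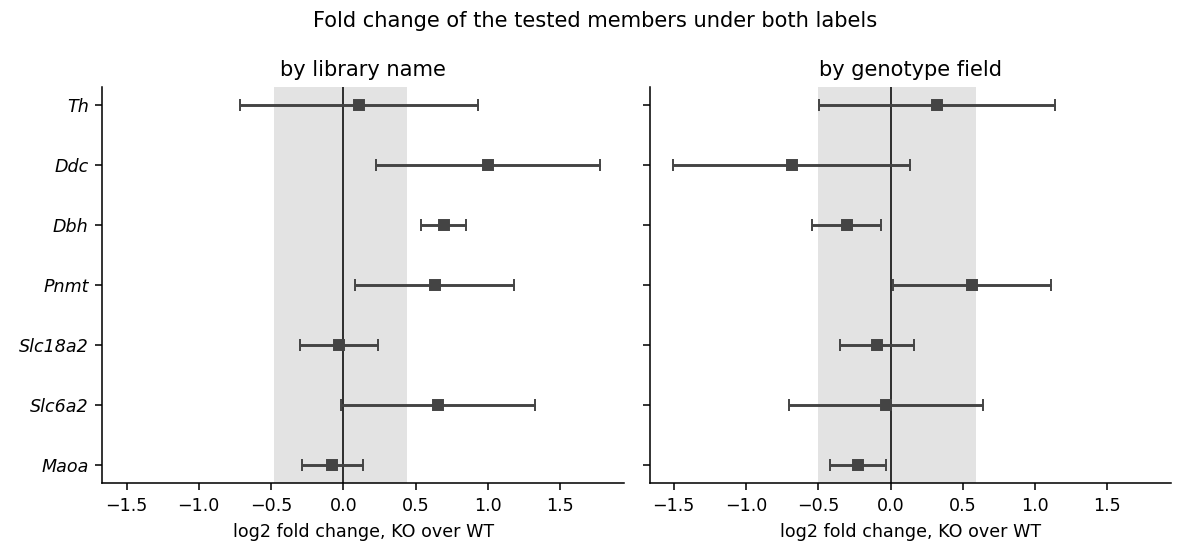
Log2 fold change, KO over WT, of the 7 tested members by library name (left) and by genotype field (right); bars are 1 SE and the grey band spans the 5th to 95th percentile of all 14708 genes. Dbh is at 0.69 with an SE of 0.15 by name and at -0.30 with an SE of 0.24 by field, while the bars of the other members are as wide as 0.82.

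Npy and Ddc were highest in the 2 libraries in which most neuronal genes were highest. Of the 13 genes of the neuronal list with any counts, 11 had KO replicate 2 and WT replicate 2 as their 2 highest libraries, as Npy and Ddc did among the members. Among genes that passed the filter on low counts, 6 of 7 neuronal genes and 1 of 7 members, Ddc, did so, beside 10.3% of all genes tested. These 2 libraries were picked out after their values were seen. The summed level of the 16 listed genes was 34.0, 88.8 and 36.9 CPM in KO replicates 1 to 3, against 28.9, 56.9 and 28.9 CPM in WT replicates 1 to 3. Stmn2, a microtubule regulator of growing axons, had 9.08, 29.9 and 11.2 CPM in KO replicates 1 to 3, against 8.87, 14.5 and 10.4 CPM in WT replicates 1 to 3. Prph, an intermediate filament of peripheral neurons, had 0.397, 6.30 and 1.03 CPM in KO replicates 1 to 3, against 1.2, 3.87 and 0.525 CPM in WT replicates 1 to 3. Both were highest in replicate 2 of each named group, where Dbh was the lowest of its group. No neuronal gene passed the test: by name 6 of 7 tested were higher in KO (median log2 fold change 0.57) and by field 7 of 7 were lower (median -0.55). Tubb3, Nefl and Dcx were at 0 in every library, and no part of the bodies of Tubb3 and Nefl is free of other genes, so their 0 cannot be read as absence. The part of neuronal content in the values of Npy and Ddc was not tested.

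Of 21 genes of the vesicle that stores and releases transmitter, 10 had KO replicate 2 and WT replicate 2 as the highest 2 and 11 did not; among those tested the count was 7 of 15. Snap25, a fusion protein of synaptic vesicles, had 0.454, 10.4 and 1.91 CPM in KO replicates 1 to 3, against 0, 3.45 and 0.131 CPM in WT replicates 1 to 3. The choline transporter Slc5a7, a marker of cholinergic neurons, had 0, 56 and 8 counts in KO replicates 1 to 3, against 0, 7 and 0 counts in WT replicates 1 to 3; Snap25 and Slc5a7 were named after their values were seen. Other vesicle genes ran otherwise: Syp, a vesicle membrane protein, had 1.53, 2.101 and 1.03 CPM in KO replicates 1 to 3, against 1.44, 0.336 and 0.657 CPM in WT replicates 1 to 3, lowest in WT replicate 2. Chat, which makes acetylcholine, had at most 4 counts in a library. Of the 15 vesicle genes tested, 0 passed; 11 were higher in KO by name (median 0.15) and 3 by field (median -0.39). Bche, a cholinesterase also made outside neurons, was highest in WT replicate 1, at 24.7 CPM, and lowest in WT replicate 2, at 13.2 CPM. Of the cholinergic list, 2 genes were tested and 0 passed, with a median of 0.07 by name and -0.25 by field.

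**Figure D4:**
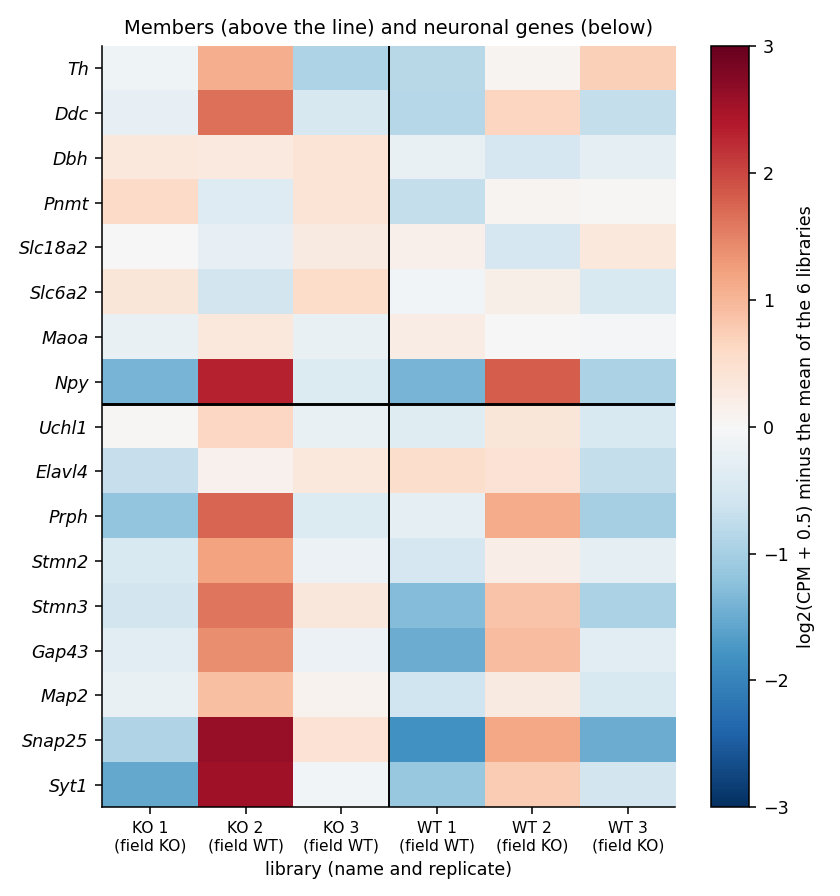
Deviation of log2(CPM + 0.5) from the mean of the 6 libraries for the 8 members, above the line, and for the 7 tested neuronal genes with Snap25 and Syt1, below it; columns are libraries with their genotype field. Npy, Ddc and most neuronal genes are reddest in KO replicate 2, where Npy has 6.01 CPM, while Dbh changes from red to blue at the vertical line between libraries named KO and WT.

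No gene that supplies or regulates the pathway passed the test. Of the 7 genes of tetrahydrobiopterin synthesis and recycling, 0 passed under either label, with medians of 0.02 by name and -1.02e-04 by field. Gch1, the first enzyme of that route, had 7.88, 8.26 and 10.4 CPM in KO replicates 1 to 3, against 6.53, 9.75 and 15.0 CPM in WT replicates 1 to 3. Pcbd1, which helps to recycle the cofactor, had 5.11, 7.39 and 4.498 CPM in KO replicates 1 to 3, against 4.91, 2.94 and 3.63 CPM in WT replicates 1 to 3, with log2 fold changes of 0.55 (SE 0.31) by name and -0.51 (SE 0.31) by field. Of 5 tested genes for copper and ascorbate, which Dbh needs, 0 passed (medians 0.09 by name and -0.04 by field). Cyb561, which returns electrons to vesicular ascorbate, had 33.5, 32.6 and 20.1 CPM in KO replicates 1 to 3, against 27.5, 21.01 and 23.5 CPM in WT replicates 1 to 3. Of 4 tested transcription factors of noradrenergic neurons 0 passed (medians 0.28 and 0.09); Gata2, which endothelial cells also express, was at -0.21 (SE 0.19) by name and 0.42 by field, with an SE of 0.15 and an edgeR adjusted p of 0.83. Of 10 tested genes of uptake outside the neuron and of breakdown 0 passed (medians 0.00 and -0.09), among them Maob at 71.9 to 117 CPM.

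Receptors and growth factors around the nerve ending gave no call either. Of 3 tested genes for Npy receptors and the peptidases that cut the peptide, 0 passed (medians 0.03 by name and -0.31 by field). Npy1r, a receptor for Npy found on vascular smooth muscle, had 13.1, 17.8 and 25.6 CPM in KO replicates 1 to 3, against 44.3, 17.5 and 13.0 CPM in WT replicates 1 to 3; WT replicate 1, without a count of Npy, was the highest. By field Npy1r was at -1.02, with an SE of 0.30 and an edgeR adjusted p of 0.78. It was below every field WT library in 3 of 3 libraries with the field KO, which held for 4.49% of all genes tested. The nearest values were 17.5 CPM in WT replicate 2 and 17.8 CPM in KO replicate 2. Of 15 tested neurotrophin and guidance genes 0 passed (medians 0.05 and -0.18). Nrtn, the growth factor neurturin of parasympathetic neurons, had 5.28, 5.30 and 2.28 CPM in the libraries with the field KO (KO replicate 1, WT replicate 2 and WT replicate 3), against 2.28, 1.74 and 1.56 CPM with the field WT (WT replicate 1, KO replicate 2 and KO replicate 3). Its log2 fold change was 1.19 by field, with an SE of 0.39 and an edgeR adjusted p of 0.79, and -0.17 (SE 0.53) by name. Of 3 tested genes for other neuropeptides 0 passed (medians -0.22 and 0.11); Penk, the enkephalin precursor, was at -0.22 (SE 0.49) by name and 0.94 by field, with an SE of 0.35 and an edgeR adjusted p of 0.86.

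Sinoatrial node cells, the pacemaker cells of the atrium, were looked at beside Dbh because the dissection can hold more or less of the node. The summed level of 12 node genes was 252, 286 and 244 CPM in KO replicates 1 to 3, against 277, 290 and 233 CPM in WT replicates 1 to 3. Rgs6 alone gave 94.1 to 118 CPM of it. The median deviation of the tested node genes from the mean over libraries (log2) was -0.23, 0.18 and -0.20 in KO replicates 1 to 3. In WT replicates 1 to 3 it was 0.19, 0.11 and 0.17. Of 11 tested 0 passed (medians -0.23 by name and -0.09 by field). By name 2 were higher in KO and 9 lower, and by field 5 were higher and 6 lower. Hcn4, the pacemaker channel, had 10.4, 17.7 and 7.82 CPM in KO replicates 1 to 3, against 9.46, 15.4 and 15.7 CPM in WT replicates 1 to 3. The part of node content in the level of Dbh was not tested. Schwann cell genes, at a summed 203, 256 and 214 CPM in KO replicates 1 to 3, against 219, 252 and 209 CPM in WT replicates 1 to 3, gave 0 calls of 9 tested (medians -0.10 and -0.04). Their median deviation (log2) ordered the libraries otherwise. It was -0.09, 0.04 and 0.26 in KO replicates 1 to 3, against 0.09, 0.10 and -0.14 in WT replicates 1 to 3.

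The genes whose pattern over the 6 libraries was most like that of Dbh came from outside the pathway, with 1 exception. Ranked by Pearson's r of log2(CPM + 0.5) among 14695 other genes with a symbol, the nearest were Pyurf (r = 0.98), Pts (r = 0.98), Pfn4 (r = 0.97), Tmem242 (r = 0.97) and the processed pseudogene Gm10156 (r = 0.97). Pts makes the direct precursor of tetrahydrobiopterin and is on the cofactor list. It had 54.7, 55.0 and 55.9 CPM in KO replicates 1 to 3, against 49.8, 45.6 and 46.4 CPM in WT replicates 1 to 3, a log2 fold change of 0.22 (SE 0.13) by name against 0.69 for Dbh. With 6 libraries, such values of r are a description of likeness, and no p is attached. Among the members, r with Dbh was 0.37 for Pnmt, 0.29 for Slc6a2, 0.24 for Slc18a2, 0.16 for Ddc, -0.10 for Th and -0.21 for Maoa. The best placed of these, Pnmt, ranked 2538 of the 14695 genes.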

How the data were processed

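RNA from 6 old atria was sequenced after RNeasy extraction and TruSeq RNA v2 library preparation from 1 µg of total RNA, per the labels' protocols; this kit does not mark strand. The authors deposited raw read counts per Ensembl gene. The submitters' processing notes name featureCounts 1.5.0-p3, HISAT2 2.1.0, FastQC 0.11.5, MultiQC 1.7 and the build GRCm38. Which annotation and feature were counted, and whether strand was used, is not given in the sources used here. Total counts per library, which set the precision, ran from 11574206 to 24138824. Every 2 libraries differed by more than counting noise, with a chi-square per gene of at least 18.8.

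Symbols were found for 54723 of 54838 identifiers, and positions came from GENCODE M21 (GRCm38). Of the listed genes, 14 were at 0 in all libraries, 9 of them with no part of the body free of other genes. Differences were tested with edgeR 4.0.16 in R 4.3.3 (quasi-likelihood F test, robust, TMM, filterByExpr, two-sided), with Benjamini-Hochberg adjustment over 14708 genes and a threshold of 0.05. Each SE was taken from the F statistic, as the size of the log2 fold change divided by its root. CPM uses TMM-scaled library sizes. Poisson intervals are exact at 95%, and a count of 0 is given the limit of 3 counts. The scripts were tested on simulated data. Alternatives were RLE scaling, DESeq2 1.42.0, no filter, a replicate block, library series, Y-linked expression (split at 10 CPM), subsets of libraries and a threshold of 0.1. Replicate numbers come from the titles. The deviations of same-numbered libraries from their group means correlated at 0.125 to 0.172 by name and 0.118 to 0.306 by field. Each of 3 pairs was above 0.1, so these libraries were taken as pairs in the replicate block, which is an alternative. The main fit had no block, and its fold changes, SEs and p-values are unpaired.

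The members and the 21 other lists were chosen with earlier results of these data known. Named beside the members were Prkce, of each list every gene past the test and otherwise up to 4 with the smallest unadjusted p under either label, and the 5 genes most like Dbh; genes named outside this rule (Prph, Snap25, Syt1, Slc5a7, Chat, Maob, Hcn4, Adipoq, Tubb3, Nefl and Dcx) were chosen for their role or after their values were seen. Promoters are RefSeq windows of GRCm38.p6.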

Additional observations from a re-analysis of the deposited data

How the results depend on the processing

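No member passed the test under any alternative, by library name or by genotype field. Dbh lay at 0.58 to 0.77 by name over 14 alternatives (0.62 to 0.75 leaving out 1 library), where the choice of the set fixed its direction, and at -0.77 to -0.15 by field. The number of genes past the threshold by name, 0 at first, was 1 with no filter on low counts, 4 with Y-linked expression as a covariate, 3 in the numbered libraries alone, 6 without the 2 libraries at odds with Prkce, and 0 to 4 leaving out 1 library, with 2 without WT replicate 1 and 4 without WT replicate 3. By field, 2 at first, it was 27 in DESeq2, 25 with no filter, 51 with the replicate block, 7 with library series as a covariate and 0 to 2 leaving out 1 library, with 0 when KO replicate 3 or WT replicate 1 was left out and 1 when KO replicate 2 or either of WT replicates 2 and 3 was. By name, the 4 genes without WT replicate 3 were the Y-linked Kdm5d, Eif2s3y, Uty and Ddx3y. The libraries named WT left there, WT replicates 1 and 2, had 1.08 and 1.09 CPM of Y-linked genes. The 6 genes by name without the 2 libraries at odds with Prkce include Prkce, whose level picked those libraries, so its call is fixed by that choice. The replicate block changed no call of a member. Of the genes on the other lists, 0 passed by name under these alternatives. By field 1 passed at first, Myl2, with Myl3 besides in DESeq2 and with no filter, Myl3 and Col1a1 besides with the replicate block, and 0 in the numbered libraries alone, without KO replicate 3 or without WT replicate 1.

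By field 5 members turned direction under an alternative, and the cause was not tested. Th, at 0.32, ran from -0.18 to 2.16 leaving out 1 library (-0.12 without WT replicate 1 and -0.15 without WT replicate 3). Ddc, at -0.68, ran from -1.28 to 0.86 leaving out 1 library. It was 1.19 without KO replicate 2 and WT replicate 3, the 2 libraries whose Prkce level goes against their field. Pnmt, at 0.56, was -0.057 in the numbered libraries alone. Slc18a2, at -0.09, ran from -0.32 to 0.089 leaving out 1 library. Slc6a2, at -0.03, ran from -0.42 to 0.71 leaving out 1 library (0.37 without WT replicate 3). It was 0.0077 with the replicate block and 5.9e-04 without KO replicate 2 and WT replicate 3. In the fit by name without WT replicate 2 and KO replicate 3, Slc6a2 missed the filter. By name, direction turned for Th in 4 of 14 alternatives (-1.05 to 0.87), Slc18a2 in 4 (-0.39 to 0.15), Maoa in 5 (-0.28 to 0.11) and Ddc in 1 (-0.23 to 2.26). Npy was fitted with no filter only. With 3 to 42 counts per library in Th, Slc6a2 and Pnmt, depth limits what can be seen in these genes.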

Other observations

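Markers of other cell types differed between libraries, and some of them parted by genotype field, among them Myl2, given below. Of all genes tested, 7.48% parted with the field KO higher and 4.49% with it lower. Some markers parted by name, such as the mesothelial Krt19 (-0.73, SE 0.25) and Aldh1a2 (-0.56, SE 0.18), lower in every library named KO. By name 3.33% of all genes parted with KO higher and 2.62% with it lower. Of 7 brown adipocyte genes, 5 were highest in KO replicate 2. The median deviation of the list from the mean over libraries was 1.03 (log2) there and lay between -0.43 and 0.08 in the remaining 5 libraries. Ppargc1a was instead lowest in KO replicate 2, at 40.4 CPM against 53.3 to 95.3 CPM elsewhere. Cox7a1 was highest in KO replicate 3, at 860 CPM. Ucp1, the uncoupling protein of brown fat, had 2.33, 57.4 and 1.76 CPM in KO replicates 1 to 3, against 3.53, 2.94 and 0 CPM in WT replicates 1 to 3. By median, white adipocyte genes were highest in WT replicate 2, KO replicate 2 and KO replicate 3, with medians of 0.40 to 0.51 there and of -0.98 to -0.14 elsewhere. Some of the list ran otherwise. Slc36a2 was lowest in WT replicate 2, at 29.8 CPM, and had 35.5 CPM in KO replicate 2. Lep had 0.113, 2.46 and 1.91 CPM in KO replicates 1 to 3, against 1.14, 0.420 and 0.438 CPM in WT replicates 1 to 3. Adipoq, the adipocyte hormone adiponectin, had 5.10, 20.1 and 13.3 CPM in KO replicates 1 to 3, against 2.88, 20.5 and 7.97 CPM in WT replicates 1 to 3. Smooth muscle genes had medians of 0.53 (KO replicate 2) and 0.44 (WT replicate 2), and of -0.52 to -0.15 elsewhere. By median, both libraries with most Npy were thus among those highest in smooth muscle and white adipocyte genes. They also had the highest medians in mast cell and macrophage genes (0.18 in KO replicate 2 and 0.52 in WT replicate 2). The same held for fibroblast genes (0.15 and 0.07). The part of these cells in the Npy level was not tested.

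By name no gene of these lists passed the test. The median log2 fold changes were 0.18 by name and -0.31 by field for white adipocyte genes, 0.50 and -0.31 for brown adipocyte genes, 0.11 and 0.02 for smooth muscle, -0.17 and -0.02 for fibroblasts, -0.10 and 0.19 for endothelial cells, -0.34 and 0.08 for mesothelial cells, and -0.18 and 0.12 for mast cells and macrophages. For cardiomyocyte genes they were 0.05 and -0.05 in the atrial list and -0.19 and 0.06 in the ventricular list. By field 1 gene passed in the main edgeR fit: Myl2, the ventricular myosin regulatory light chain. Its log2 value was 3.09, with an SE of 0.25 and an edgeR adjusted p of 0.0039. It was higher in all 3 field KO libraries than in any field WT library, which held for 7.48% of all genes tested. Myl2 had 251, 357 and 174 CPM in these (KO replicate 1, WT replicate 2 and WT replicate 3), against 32.6, 25.6 and 33.3 CPM in WT replicate 1, KO replicate 2 and KO replicate 3. With the replicate block 2 more passed by field in edgeR: Myl3, the ventricular essential light chain (log2 1.201, adjusted p of 9.24e-05), and Col1a1, the fibroblast collagen (log2 0.76, adjusted p of 0.0195). Myl3 also passed by field in DESeq2 and with no filter on low counts, both without a block. It had 165, 189 and 125 CPM in the field KO libraries (KO replicate 1, WT replicate 2 and WT replicate 3). In WT replicate 1, KO replicate 2 and KO replicate 3 it had 77.2, 76.1 and 54.3 CPM.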
